A study of Mus musculus with 22 samples.

Results

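The platelet-derived growth factor (PDGF) ligands and their receptors were followed in fibroblasts sorted from mouse back skin after an operation with or without a skin expander. The members were the rows of the raw count table whose Ensembl identifiers map to the family's symbols, which gave 7 of 55414 genes. These were the receptor genes Pdgfra (ENSMUSG00000029231), Pdgfrb (ENSMUSG00000024620) and Pdgfrl (ENSMUSG00000031595), and the ligand genes Pdgfa (ENSMUSG00000025856), Pdgfb (ENSMUSG00000000489), Pdgfc (ENSMUSG00000028019) and Pdgfd (ENSMUSG00000032006). Of these, 6 had enough counts to be tested among 17554 genes, and Pdgfb did not.

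All mice were operated on: the back skin was cut near the tail and a path was opened under the skin as far as the neck. EXP mice received a hydrogel expander under the skin near the neck, and CTRL mice received none, so the controls carry the wound but not the implant. Skin was taken on day 1 (4 CTRL and 5 EXP libraries), day 2 (3 CTRL and 3 EXP) and day 4 (4 CTRL and 3 EXP), which makes 22 bulk RNA-seq libraries. After cells carrying CD31, CD45, CD117 or EpCAM had been gated out, viable CD34+ PDGFRα+ cells were collected. Strain, age and sex are not given in the sources used here. The comparison asks how fibroblasts of operated skin with an expander differ from those of operated skin without one. Stretch and the presence of the implant cannot be told apart in it.

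PDGFs are secreted dimers of A, B, C or D chains that bind the receptor tyrosine kinases PDGFRα and PDGFRβ at the cell surface. AA and CC dimers act through PDGFRα, DD dimers act mainly through PDGFRβ, and BB dimers bind both. The A and B chains are cut inside the cell by furin-like convertases, whereas the C and D chains are secreted with an inhibitory CUB domain that proteases such as plasminogen activators remove outside the cell. The product of Pdgfrl resembles the extracellular part of a PDGF receptor and has no kinase domain. In skin, PDGFRα marks dermal fibroblasts and PDGFRβ is found on fibroblasts and on pericytes, while platelets, endothelium and keratinocytes are known sources of ligand.

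Libraries held 21461294 to 30210204 counts. CPM is the count of a gene relative to the total of its library. On these unscaled totals, 3 counts, taken as the smallest detectable level, correspond to 0.0993 to 0.140 CPM. All other CPM values are on library totals scaled by TMM, edgeR's correction for composition. Col1a1, a collagen gene that marks fibroblasts, was high in every library, between 16755 and 134924 CPM. The genes of the proteins gated out were low, with maxima of 3.68 CPM for Pecam1 (CD31), 0.243 CPM for Ptprc (CD45), 0.699 CPM for Kit (CD117) and 2.09 CPM for Epcam. Cd34, the other positive sort marker, was lower in EXP on day 1 (log2 fold change -1.74, edgeR adjusted p 0.000810) and day 2 (-2.07, adjusted p 0.00379), and its day 4 value of -0.93 did not pass (adjusted p 0.0948). Apart from the groups, 7 libraries were high and 15 low in a set of 192 genes correlated with Rnf10. The high libraries were CTRL replicates 1 to 3 and EXP replicates 1 and 2 of day 1, and CTRL replicates 3 and 4 of day 4. The labels give no batch to go with this split, and values within its sides stand beside the results below.

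Among the receptors, Pdgfra transcripts were more abundant in EXP than in CTRL fibroblasts on all 3 days, by 1.79-fold on day 1, 3.26-fold on day 2 and 1.73-fold on day 4. Pdgfra was the single member called on each day (adjusted p under 0.05), 1 of 6 tested members. Over all tested genes the share called was 28.6% on day 1, 13.4% on day 2 and 22.5% on day 4, so 1 of 6 members is not more than the background on days 1 and 4 and near it on day 2. In the higher direction alone, 13.9%, 7.72% and 12.8% of genes were called. PDGFRα protein was a criterion of the sort in both arms, so these are levels among cells that all passed the PDGFRα gate. In bulk samples a change in the make-up of the sorted cells and a change in RNA per cell cannot be told apart.

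The 250 bases upstream of the annotated Pdgfra start are shown because it was the only member called between the arms. They lie at chr5:75152001-75152250 on the plus strand (RefSeq, GRCm38.p6), are read 5′ to 3′, and hold 54.4% G and C against a median of 52.4% over 32851 such windows. Capitals would mark a match to GGGCGG (the Sp1 box), GTGGGCG (the core of the EGR1 site), TGANTCA (AP-1), TATAAA (the TATA box) or the CArG box of SRF on either strand, and this window has 0 matches.

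Pdgfra: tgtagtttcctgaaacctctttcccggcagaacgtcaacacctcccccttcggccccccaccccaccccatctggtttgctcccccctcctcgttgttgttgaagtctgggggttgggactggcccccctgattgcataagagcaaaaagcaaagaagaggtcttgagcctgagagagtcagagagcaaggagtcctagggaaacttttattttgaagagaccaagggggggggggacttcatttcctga

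No match says only that these letters are not in this window. Over all windows the shares with a match were 32.7% for GGGCGG, 7.02% for GTGGGCG, 6.75% for TGANTCA, 12.4% for TATAAA and 1.47% for the CArG box. Of the 7 members, 4 had a window in the RefSeq table.

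On day 1, Pdgfra was at 369, 321, 413 and 319.7 CPM in the CTRL libraries and at 692, 465, 702, 690.5 and 643 CPM in the EXP libraries, in replicate order. The arms did not overlap, as was true of 23.9% of tested genes on that day. The lowest EXP library, replicate 2, stood apart from the 4 others, which lay within 643 to 702 CPM. The means were 356 ± 44.7 CPM (SD of 4 libraries) and 639 ± 99.5 CPM (SD of 5 libraries), or 0.84 higher on the log2 scale (95% interval 0.32 to 1.37, edgeR quasi-likelihood adjusted p 0.0154).

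On day 2, Pdgfra was at 231, 227 and 258 CPM in CTRL and at 1023, 464 and 851 CPM in EXP. Again no EXP library reached down to the CTRL range, which held for 39.3% of tested genes in this comparison of 3 against 3. The CTRL libraries lay close together, whereas the EXP libraries were spread widely. The means were 239 ± 16.8 CPM (SD of 3 libraries) and 779.5 ± 286 CPM (SD of 3 libraries), with a log2 fold change of 1.71 (95% interval 1.06 to 2.35, edgeR adjusted p 0.00134).

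On day 4, Pdgfra was at 295, 275, 335 and 279 CPM in CTRL and at 865, 295 and 378 CPM in EXP. Here the arms overlapped, as they did for all but 25.5% of tested genes: 2 of 3 EXP libraries lay above every CTRL library, and EXP replicate 2 lay inside the CTRL range. The means were 296 ± 27.4 CPM (SD of 4 libraries) and 513 ± 308 CPM (SD of 3 libraries), with a log2 fold change of 0.79 (95% interval 0.21 to 1.37, edgeR adjusted p 0.0456). This call rested on single libraries. Without EXP replicate 1 the value was 0.19 (adjusted p 0.652). Leaving out CTRL replicates 1, 2, 3 or 4 kept the value near the full one, at 0.79, 0.76, 0.86 and 0.77, but not the call (adjusted p 0.0742, 0.0849, 0.0619 and 0.0924).

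**Figure D1:**
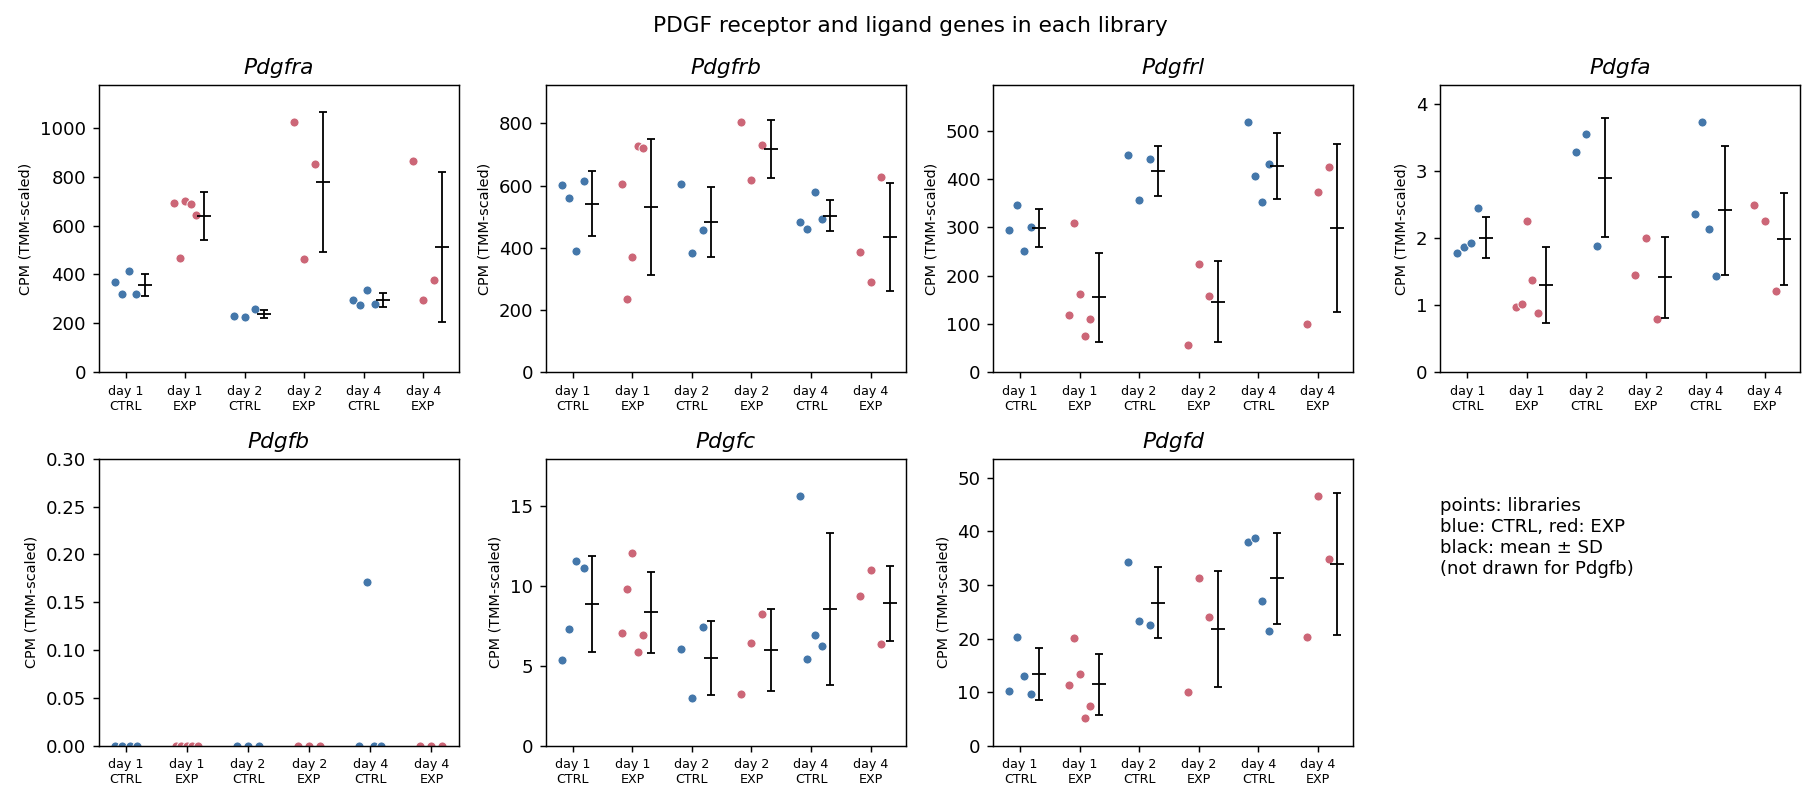
CPM of the 7 PDGF family genes in each library (linear axes from 0) against the 6 groups. Points are libraries, blue for CTRL and red for EXP, and black bars are mean ± SD, not drawn for Pdgfb. Pdgfra lies higher in every EXP library of days 1 and 2, Pdgfrl lies lower in the 3 EXP libraries of day 2, and Pdgfb is at 0 in all libraries but 1.

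Within the high side of the library split (3 CTRL and 2 EXP of day 1) the Pdgfra value was 0.61 (adjusted p 0.122), and within the low side of day 4 (2 CTRL and 3 EXP) it was 0.85 (adjusted p 0.383). Day 2 had no library on the high side. The other called genes of the fibroblast marker list moved the opposite way to Pdgfra. Of its 9 genes, 4 were called lower and 1, Pdgfra itself, higher on day 1, with 5 and 1 on day 2, and 3 and 1 on day 4. Of all tested genes, 14.7%, 5.71% and 9.66% were called lower on these days, and 13.9%, 7.72% and 12.8% higher. The genes called lower on day 1 were Cd34 and the collagen genes Col1a1, Col1a2 and Col3a1. Dpt and Thy1 were not called on any day (edgeR adjusted p 0.253 to 0.692). Those 3 collagen genes had the highest medians of the list (68747, 63026 and 72734 CPM), so its sum mostly follows them. The summed level of the list was 211121 to 284184 CPM in CTRL and 93714 to 171555 CPM in EXP on day 1. The day 2 sums were 329004 to 408653 against 68309 to 171389 CPM, and those of day 4 were 267782 to 370085 against 83541 to 280551 CPM. The part of this shift in the Pdgfra result was not tested.

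Tests of whether the EXP effect on Pdgfra depended on the day did not pass. The effect on day 2 exceeded that on day 1 by 0.86 on the log2 scale (95% interval 0.05 to 1.67, adjusted p 0.245), and the joint test over the 3 days gave an edgeR adjusted p of 0.227. For the other 5 tested members the joint adjusted p lay between 0.447 and 0.964. No member was therefore called by edgeR, against 8.82% of all genes, and 0 of 6 had an unadjusted p under 0.05. DESeq2 called 0 members and limma voom called 1, Pdgfra (adjusted p 0.0324). Without day 4 EXP replicate 1 edgeR also called Pdgfra (adjusted p 0.0198). Within EXP, the change of Pdgfra over the days passed without that library as well (adjusted p 0.0125, and 0.354 with it).

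Pdgfrb, the receptor for BB and DD dimers, was not called between the arms on any day by edgeR. It did not overlap between the arms on day 2, as for 39.3% of tested genes. On day 1 it was at 602, 559, 389.6 and 616 CPM in CTRL and at 605, 234, 371, 726 and 719.9 CPM in EXP. EXP libraries lay on both sides of the CTRL range, and the log2 fold change was -0.03 (95% interval -0.59 to 0.54, edgeR adjusted p 0.950). On day 4 the CTRL libraries were at 483, 461, 578 and 491 CPM and the EXP libraries at 386, 289 and 626 CPM, a difference of -0.21 (95% interval -0.86 to 0.43, adjusted p 0.657). Both intervals end below the Pdgfra values of the same days (0.84 and 0.79) but overlap the Pdgfra intervals (0.32 to 1.37 and 0.21 to 1.37). The difference between the 2 genes within a single day was not tested.

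On day 2, Pdgfrb was at 605, 383 and 457 CPM in CTRL and at 803, 618 and 731 CPM in EXP. All 3 EXP libraries lay above all 3 CTRL libraries, as for 20.9% of tested genes, by a narrow margin between 605 and 618 CPM. The log2 fold change of 0.57 (95% interval -0.12 to 1.27) had an adjusted p of 0.272. The call depended on scaling: on library totals without TMM the day 2 value was 1.07 and passed (adjusted p 0.0244). That scaling also turned the day 1 and day 4 values positive (0.19 and 0.0843). The list of pericyte and smooth muscle genes marks other cells that carry PDGFRβ. It summed to 52.9 to 102.5 CPM in CTRL and 28.9 to 49.3 CPM in EXP on day 1. The day 2 sums were 91.2 to 103.6 against 61.7 to 70.1 CPM. The day 4 sums overlapped, at 63.6 to 131 against 58.9 to 87.5 CPM. Of its 10 genes, 0 were called higher and 2 lower on day 1, against 13.9% and 14.7% of all genes. On day 2 there was 1 higher and 1 lower, against 7.72% and 5.71%. On day 4 there was 1 higher and 0 lower, against 12.8% and 9.66%. Acta2 was the gene called higher, by 2.73 and 2.22 (log2, edgeR adjusted p 0.0254 and 0.0264). Kcnj8 and Abcc9 had the highest medians of the list, 22.5 and 20.3 CPM. On day 2 neither was called (log2 -1.47 and -1.06, edgeR adjusted p 0.107 and 0.259). The medians of Rgs5, Notch3, Mcam, Myh11 and Tagln were 0.0692 to 0.944 CPM. The part of such cells in the Pdgfrb level was not tested.

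The ratio of Pdgfra to Pdgfrb counts within a library does not depend on library scaling. Its log2 value was -0.59 ± 0.46 (SD of 4 libraries) in CTRL and 0.37 ± 0.55 (SD of 5 libraries) in EXP on day 1. The day 2 values were -0.99 ± 0.35 (SD of 3 libraries) and 0.05 ± 0.41 (SD of 3 libraries), and on day 4 it was -0.77 ± 0.04 (SD of 4 libraries) and 0.15 ± 0.95 (SD of 3 libraries). The ratio lay above every CTRL library of the same day in 3 of 5, 3 of 3 and 2 of 3 EXP libraries. The day 4 CTRL libraries were tightly grouped, and the EXP libraries of that day ran from -0.73 to 1.16.

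Averaged over the days, EXP exceeded CTRL by 0.98 on the log2 scale, which is 1.97-fold, with daily differences of 0.97, 1.04 and 0.92. An exact two-sided permutation test of the arm within each day (88200 arrangements) gave p = 0.000136, or 0.000272 after adjustment over the 2 ratios tested. This difference was present within the library split, at 1.03 on the low side (6 CTRL and 9 EXP, exact p = 0.00625) and 1.07 on day 1 of the high side (3 CTRL and 2 EXP, not tested). With each library left out in turn it stayed between 0.81 and 1.12 and past the threshold. Per kilobase of exon, Pdgfra made up 26.9% ± 6.62 (SD of 4 libraries) of the 2 kinase receptors in CTRL and 41.7% ± 9.18 (SD of 5 libraries) in EXP on day 1. The shares were 21.8% ± 3.93 (SD of 3 libraries) and 36.4% ± 6.36 (SD of 3 libraries) on day 2, and 24.3% ± 0.570 (SD of 4 libraries) and 38.5% ± 15.3 (SD of 3 libraries) on day 4. With the length of the longest transcript in place of all exons the means were 28.7% to 34.7% in CTRL and 45.2% to 50.7% in EXP.

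**Figure D2:**
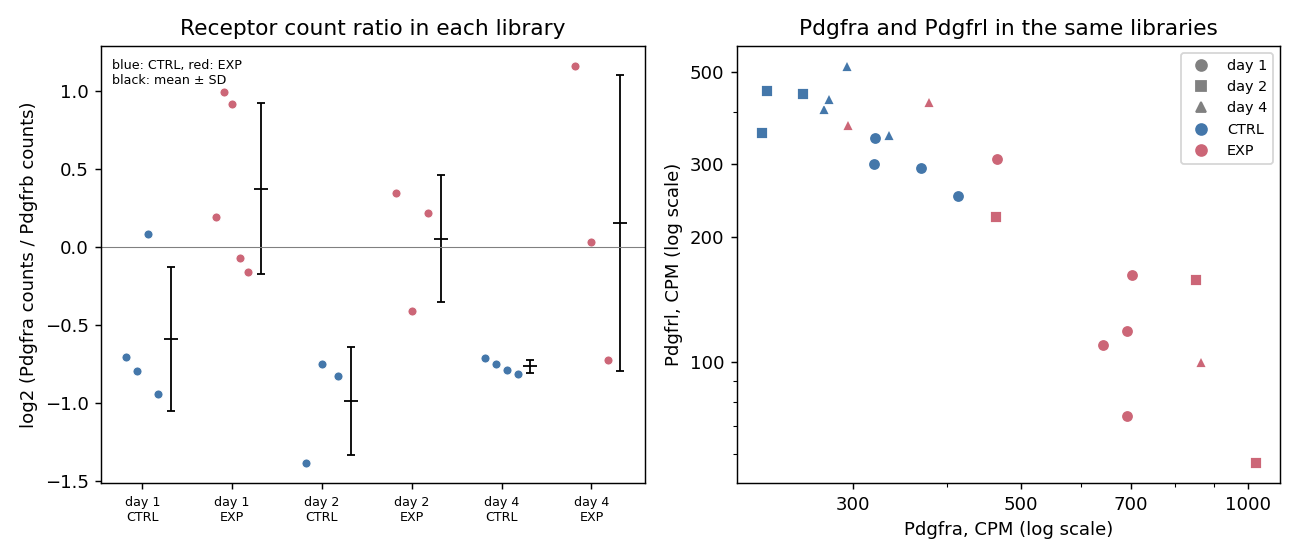
Left, log2 ratio of Pdgfra to Pdgfrb counts in each library by group (points, libraries; black, mean ± SD). Right, CPM of Pdgfrl against CPM of Pdgfra in the 22 libraries on log axes, by day (shape) and arm (colour). The EXP ratio averaged 0.98 above CTRL on the log2 scale, and the libraries with the most Pdgfra, at 1023 and 865 CPM, have 56.9 and 100.2 CPM of Pdgfrl.

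Pdgfrl, which encodes the kinase-free receptor-like protein, had lower means in EXP on all days, but no difference passed in edgeR. On day 1 it was at 294, 347, 251 and 300.3 CPM in CTRL and at 119, 309, 162, 73.9 and 109.8 CPM in EXP. Of the EXP libraries, 4 of 5 lay below every CTRL library, and replicate 2 lay inside the CTRL range. The log2 fold change was -0.95 (95% interval -1.79 to -0.11, edgeR adjusted p 0.0845). Without EXP replicate 2 it was -1.36 and passed (adjusted p 0.0118).

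On day 2, Pdgfrl was at 449.9, 356 and 442 CPM in CTRL and at 56.9, 223 and 158 CPM in EXP. The arms did not overlap, with EXP below CTRL, as for 18.4% of tested genes on that day. The log2 fold change of -1.51 (95% interval -2.56 to -0.46) narrowly missed the threshold (adjusted p 0.0515). It passed with DESeq2 (adjusted p 0.0134), with limma voom (0.00394), in a fit of the day 2 libraries alone (0.0417), and without EXP replicate 2 (-1.96, adjusted p 0.0325). On day 4 the CTRL libraries were at 518, 407, 353 and 432 CPM and the EXP libraries at 100.2, 372 and 425 CPM. The arms overlapped, with EXP replicate 1 alone below the CTRL range, and the log2 fold change was -0.52 (95% interval -1.49 to 0.45, adjusted p 0.447).

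Pdgfra and Pdgfrl were inversely related over the 22 libraries (Pearson r = -0.92 on log2 CPM), which includes the differences between groups. Within groups the order of the libraries was fully opposite in day 2 EXP only. The EXP library with the most Pdgfra on day 2 and on day 4, replicate 1 both times, also had the least Pdgfrl and the least Cd34 of its group. On day 1 the EXP library with the least Pdgfra, replicate 2, had the most Pdgfrl and the most Cd34 (778 CPM, against 262 to 366 CPM in the 4 others). The EXP library with the most Pdgfra on day 1, replicate 3, had neither the least Pdgfrl nor the least Cd34, both of which were in replicate 4. In CTRL the highest Pdgfra went with the lowest Pdgfrl on days 1 and 4 but not on day 2. Cd34 ran the other way in CTRL on days 1 and 2, where replicate 3 had the most Pdgfra and the most Cd34, and the library with the least Pdgfra (replicate 4 on day 1, replicate 2 on day 2) had the least Cd34. On day 4 the CTRL library with the least Pdgfra, replicate 2, had the most Cd34. These orders are a description of libraries that share a group, and no test was made.

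The genes whose log2 CPM followed each receptor most closely were taken among 13447 genes over the 22 libraries, which share the groups and the split. For Pdgfra they were Vars, encoding valyl-tRNA synthetase (Pearson r = 0.92), the nucleolar gene Rbm28 (r = 0.91) and Tnc, encoding the matrix protein tenascin-C (r = 0.91). For Pdgfrb they were the actin-bundling gene Pls3 (r = 0.83), Chrna1 (r = 0.81) and Adssl1 (r = 0.80). For Pdgfrl they were the semaphorin gene Sema3b (r = 0.96), Ndufa4l2 (r = 0.96) and the claudin gene Cldn10 (r = 0.95).

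Of the ligands, Pdgfd was the most abundant per length in every group. It was also the only member called over the days, within EXP only, where 14.3% of all genes were called. The Pdgfd window is shown for that reason. It lies at chr9:6168236-6168485 on the plus strand (RefSeq, GRCm38.p6), has 53.6% G and C, and holds 1 match, a TATAAA in capitals whose first base is 160 bases before the start.

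Pdgfd: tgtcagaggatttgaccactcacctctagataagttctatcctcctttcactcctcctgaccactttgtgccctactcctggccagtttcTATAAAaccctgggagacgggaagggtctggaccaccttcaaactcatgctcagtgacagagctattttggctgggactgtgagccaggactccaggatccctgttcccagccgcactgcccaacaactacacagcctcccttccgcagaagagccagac

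On day 1, Pdgfd was at 10.3, 20.3, 12.99 and 9.73 CPM in CTRL and at 11.2, 20.04, 13.3, 5.22 and 7.33 CPM in EXP. On day 2 it was at 34.3, 23.4 and 22.5 CPM in CTRL and at 10.03, 31.2 and 24.0 CPM in EXP. On day 4 it was at 38.0, 38.7, 26.9 and 21.5 CPM in CTRL and at 20.2, 46.6 and 34.8 CPM in EXP. In CTRL every library of days 2 and 4 lay above every library of day 1. In EXP the day 4 libraries lay just above those of day 1 (20.2 against 20.04 CPM at the nearest), and day 2 overlapped with both.

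Between the arms Pdgfd did not pass on any day, with log2 fold changes of -0.22, -0.30 and 0.11 on days 1, 2 and 4 (95% intervals -0.99 to 0.54, -1.22 to 0.63 and -0.75 to 0.98, edgeR adjusted p 0.689, 0.713 and 0.870). Over the days within EXP it was called (joint adjusted p 0.0263), the only 1 of 6 members. Of all genes 14.3% were called, so 1 of 6 is near the background. Day 4 exceeded day 1 by 1.57 on the log2 scale, or 2.96-fold (95% interval 0.76 to 2.38, adjusted p 0.00883), a contrast in which 19.0% of all genes were called and 12.1% were higher, and day 2 exceeded day 1 by 0.93 (adjusted p 0.203). The joint call was lost without day 1 EXP replicate 1, 4 or 5 (adjusted p 0.0635, 0.0525 and 0.0604) and without day 4 EXP replicate 2 (0.129). The rise from day 1 to day 4 was lost only without day 4 EXP replicate 2 (1.22, adjusted p 0.0773) among the 22 fits with a library left out.

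Within CTRL the Pdgfd values were of similar size, 1.00 for day 2 over day 1 and 1.23 for day 4 over day 1 (95% interval 0.42 to 2.05, adjusted p 0.165), and the joint adjusted p was 0.241. No member was called over the days in CTRL by edgeR, where 0.291% of all genes were called. At an unadjusted p under 0.05 there was 1 member, Pdgfd, and DESeq2 and limma voom each called 0. Whether the change over days differed between the arms is the joint test of the EXP effect, which gave an adjusted p of 0.867 for Pdgfd. Days may also differ in handling, which cannot be told apart from time after surgery. The adipocyte marker list moved with day 4 in EXP: 4 of its 5 genes were called higher than in CTRL there, against 12.8% of all genes. Its sum was 1.80, 113 and 342 CPM in replicates 1, 2 and 3, against at most 1.11 CPM in day 4 CTRL. The endothelial list moved as well, from 0.732 to 8.24 CPM in day 1 EXP to 25.9, 53.5 and 23.1 CPM in replicates 1, 2 and 3 of day 4 EXP, against 4.16 to 10.5 CPM in day 4 CTRL. Those are the replicates in which Pdgfd was at 20.2, 46.6 and 34.8 CPM. Replicate 2 had the most Pdgfd and the highest endothelial sum, and replicate 3 had the highest adipocyte sum. In CTRL the endothelial sums were 5.76 to 8.45 CPM on day 1 and 0.199 to 0.731 CPM on day 2, when Pdgfd was higher. The CTRL adipocyte sums were 0.330 to 12.7 CPM on day 1 and 0 to 2.51 CPM on day 2. In the endothelial list Tek reached 44.9 CPM, against at most 3.68 CPM for each other gene. Tek was not called between the arms on day 4 (2.63, edgeR adjusted p 0.0563), whereas Kdr (3.11, 0.0179) and Emcn (5.09, 0.0394) were called higher. The part of both lists in the Pdgfd values was not tested.

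Pdgfa and Pdgfc, whose dimers act through PDGFRα, were low. Pdgfa ran from 1.77 to 2.45 CPM in CTRL and from 0.875 to 2.25 CPM in EXP on day 1, from 1.89 to 3.55 and from 0.797 to 2.01 CPM on day 2, and from 1.43 to 3.73 and from 1.21 to 2.496 CPM on day 4. Means were lower in EXP each day and the arms overlapped each day, with 4 of 5, 2 of 3 and 1 of 3 EXP libraries below all CTRL libraries. The log2 fold changes of -0.63, -1.03 and -0.28 did not pass (95% intervals -1.37 to 0.12, -1.94 to -0.12 and -1.12 to 0.56, edgeR adjusted p 0.199, 0.125 and 0.658). Limma voom alone called the day 2 value (adjusted p 0.0169). These values rest on 21 to 93 counts per library, and 26.1% of the exon length of Pdgfa is shared with 6330403L08Rik on the opposite strand (median of 5 counts), from which its reads cannot be separated with certainty.

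Pdgfc ran from 5.36 to 11.6 CPM in CTRL and from 5.89 to 12.1 CPM in EXP on day 1, from 2.98 to 7.46 and from 3.23 to 8.27 CPM on day 2, and from 5.41 to 15.6 and from 6.36 to 11.01 CPM on day 4. The arms overlapped on each day. The log2 fold changes were -0.08, 0.12 and 0.06 (95% intervals -0.82 to 0.65, -0.79 to 1.02 and -0.77 to 0.90, adjusted p 0.883, 0.894 and 0.929).

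The upstream windows of these 2 ligands are shown together because the A and C chains serve the same receptor and their ratio was tested. The Pdgfa window, at the more upstream of its 2 annotated starts (chr5:138994945-138995194, minus strand, RefSeq, GRCm38.p6), has 72.4% G and C and 2 matches to GGGCGG on the opposite strand, in capitals. The Pdgfc window (chr3:81036166-81036415, plus strand) has 50.8% G and C and 1 match to the CArG box, in capitals, whose first base is 17 bases before the start.

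Pdgfa: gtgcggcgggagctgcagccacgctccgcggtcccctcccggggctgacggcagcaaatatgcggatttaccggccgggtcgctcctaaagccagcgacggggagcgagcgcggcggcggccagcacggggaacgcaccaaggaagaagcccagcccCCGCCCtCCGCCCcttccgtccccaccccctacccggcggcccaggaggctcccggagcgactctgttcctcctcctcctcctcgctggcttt

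Pdgfc: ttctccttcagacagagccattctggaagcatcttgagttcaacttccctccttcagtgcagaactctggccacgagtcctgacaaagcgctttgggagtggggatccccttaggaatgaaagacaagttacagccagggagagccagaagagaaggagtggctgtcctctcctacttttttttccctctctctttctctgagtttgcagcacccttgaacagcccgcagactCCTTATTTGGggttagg

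The log2 ratio of Pdgfa to Pdgfc counts was lower in EXP by 0.64 on day 1, 1.19 on day 2 and 0.43 on day 4. Averaged over days the difference was -0.75, or 0.594-fold (exact permutation p = 0.0451, also after adjustment over the 2 ratios). The arms overlapped on each day. The call was lost in 13 of 22 runs with a library left out (-0.93 to -0.54, adjusted p up to 0.121) and within the low side of the library split (-0.69, exact p = 0.125). The 13 libraries were 5 of day 1 (CTRL replicates 1 and 2, EXP replicates 1, 2 and 5), 4 of day 2 (CTRL replicates 1 and 2, EXP replicates 2 and 3) and 4 of day 4 (CTRL replicates 2 and 3, EXP replicates 2 and 3).

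Pdgfb, the B chain, was at 0 counts in 21 of 22 libraries. The exception was day 4 CTRL replicate 2, with 4 counts or 0.172 CPM. A count of 0 allows up to 3 counts, or 0.0993 to 0.140 CPM on library totals without TMM, for counting error only. The list for endothelial cells, a known source of the B chain, summed to 0.199 to 53.5 CPM over the libraries. It was highest in day 4 EXP replicate 2, where Pdgfb was at 0 counts. Its gene Tek reached 44.9 CPM, and no other gene of the list exceeded 3.68 CPM. Of its 6 genes, 2 were called higher in EXP on day 4, against 12.8% of all genes. The platelet list summed to 6.54 to 30.7 CPM, with Itga2b at 6.04 to 30.5 CPM and each other gene at most 2.55 CPM. The keratinocyte list summed to 3.35 to 43.9 CPM.

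The genes closest to each ligand across the 22 libraries were Nkain4 (r = 0.87), Erlec1 (r = 0.86) and Cryzl2 (r = 0.85) for Pdgfd. For Pdgfa they were Armcx2 (r = 0.80), the small GTPase gene Rap2a (r = 0.79) and Gm44250 (r = 0.78). For Pdgfc they were Cops3 (r = 0.71), Ube2v2 (r = 0.66) and Unc50 (r = 0.65), and no gene followed Pdgfc as closely as the best matches of the other 5 tested members.

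Per kilobase of exon, receptors stood far above ligands in every group. Mean levels of Pdgfra were 77.8, 63.7 and 51.1 CPM per kb in day 2, day 1 and day 4 EXP, followed by 35.5, 29.5 and 23.8 CPM per kb in day 1, day 4 and day 2 CTRL. Libraries of neighbouring groups in this order overlapped, except those of day 4 and day 2 CTRL. For Pdgfrb the order ran from 130.9 CPM per kb in day 2 EXP to 79.2 CPM per kb in day 4 EXP, and only the day 2 EXP libraries lay clear of their next neighbour, day 1 CTRL. Pdgfrl ran from 137 CPM per kb in day 4 CTRL to 46.7 CPM per kb in day 2 EXP with overlap between all neighbours. The ligand means were 3.63 to 10.7 CPM per kb for Pdgfd, 1.08 to 1.75 CPM per kb for Pdgfc and 0.416 to 0.932 CPM per kb for Pdgfa, with overlap between all neighbouring groups.

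Pdgfd made up 63.1% ± 10.7 (SD of 4 libraries) of the summed per-length level of the 4 ligands in CTRL and 61.7% ± 9.02 (SD of 5 libraries) in EXP on day 1. The day 2 share was 80.5% ± 2.73 (SD of 3 libraries) and 79.4% ± 4.81 (SD of 3 libraries), and on day 4 it was 80.2% ± 3.43 (SD of 4 libraries) and 80.5% ± 8.57 (SD of 3 libraries). The 2 kinase receptors together were 21.4 ± 6.87 (SD of 4 libraries) times the 4 ligands in CTRL and 34.9 ± 21.2 (SD of 5 libraries) times in EXP on day 1. The multiples were 10.7 ± 0.987 (SD of 3 libraries) and 31.5 ± 23.5 (SD of 3 libraries) on day 2, and 10.5 ± 3.45 (SD of 4 libraries) and 11.3 ± 6.36 (SD of 3 libraries) on day 4. Lengths came from an annotation that may differ from the one behind the counts, so levels of different genes are approximate.

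**Figure D3:**
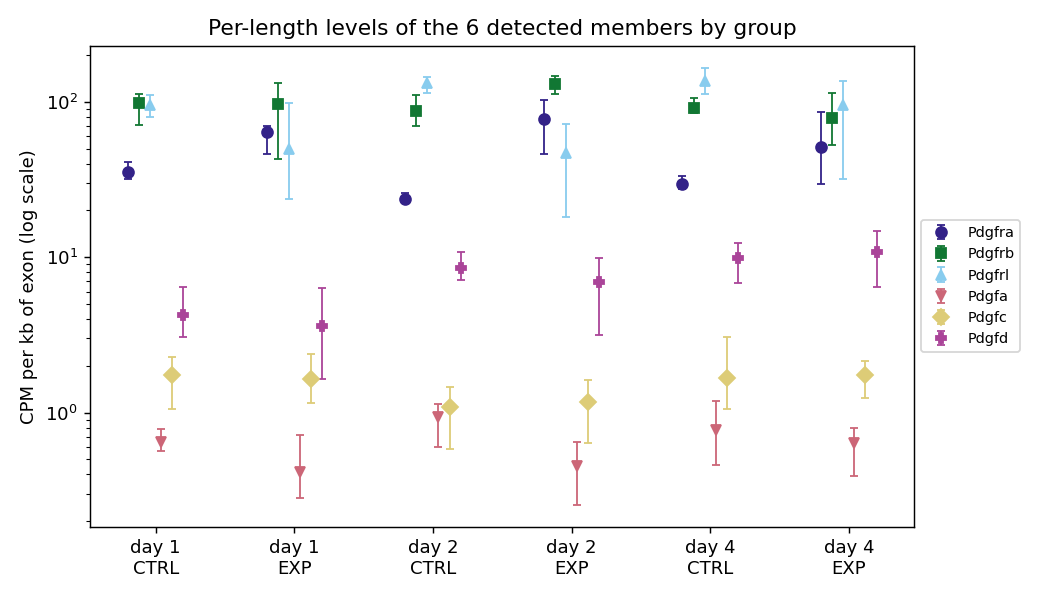
Level of the 6 detected members in CPM per kilobase of exon (log axis) in each group. Symbols are group means and bars run from the lowest to the highest library. Pdgfrb stays between 79.2 and 130.9, Pdgfrl runs from 46.7 to 137, Pdgfra moves from 23.8 in day 2 CTRL to 77.8 in day 2 EXP, and Pdgfd lies above Pdgfc and Pdgfa throughout.

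**Figure D4:**
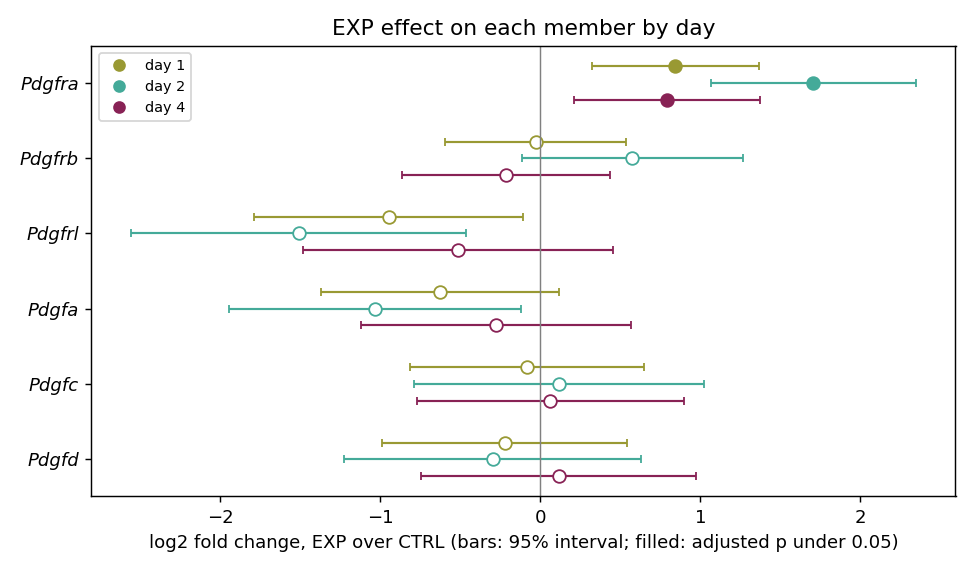
Log2 fold change of EXP over CTRL for the 6 tested members on days 1, 2 and 4, with 95% intervals. Filled symbols passed an edgeR adjusted p of 0.05. Pdgfra, at 0.84, 1.71 and 0.79, is the only member with filled symbols, and the Pdgfc values lie between -0.08 and 0.12.

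The other genes of the pathway were taken from 4 lists of 68 genes in all, each of which was tested. On day 1, 17 were called higher and 7 lower (25.0% and 10.3%), against 13.9% and 14.7% of all genes. On day 2 there were 8 higher and 7 lower (11.8% and 10.3%), against 7.72% and 5.71%. On day 4 there were 7 higher and 8 lower (10.3% and 11.8%), against 12.8% and 9.66%. Median log2 fold changes over the 68 genes were 0.28, -0.14 and -0.28, and those over all tested genes were 0.02, 0.02 and 0.03. These lists and their medians describe the genes listed, with no test against other genes. The genes named from them were chosen among called genes whose arms do not overlap on a day, so their separation on that day is not a finding.

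Genes of ligand processing and binding, which includes the proteases that free the C and D chains, had the highest medians. Of 12 genes, 3 were higher and 1 lower on day 1 (25.0% and 8.33%, against 13.9% and 14.7% of all genes). On day 2, 5 were higher and 2 lower (41.7% and 16.7%, against 7.72% and 5.71%). On day 4, 5 were higher and 0 lower (41.7% and 0%, against 12.8% and 9.66%). Median log2 fold changes of the list were 0.35, 1.28 and 0.99. Plat, encoding tissue plasminogen activator, was at 80.5 to 175 CPM in CTRL and 58.3 to 136 CPM in EXP on day 1. It was at 37.5 to 50.3 and 138 to 239 CPM on day 2, and at 87.6 to 151 and 304 to 1164 CPM on day 4. It rose by 2.02 on day 2 and 2.63 on day 4 (log2, edgeR adjusted p 0.00359 and 0.000291), and was at -0.41 on day 1 (adjusted p 0.365).

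Plau, encoding urokinase, had day 1 values of 4.99 to 6.66 CPM in CTRL and 3.53 to 13.5 CPM in EXP, and day 4 values of 5.88 to 8.48 and 24.0 to 120.3 CPM. Its log2 fold changes were 0.36 on day 1 (adjusted p 0.553), 1.67 on day 2 (adjusted p 0.0349) and 3.01 on day 4 (adjusted p 0.000466). For both activators the joint test of the EXP effect over the days passed (edgeR adjusted p 0.00169 for Plat and 0.0262 for Plau), as for 8.82% of all genes. Plat was named for its rise on day 2 and Plau for its rise on day 4. Such a choice favours a difference between days, so these p-values only describe the 2 genes.

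The convertase genes moved in different directions. Pcsk5 was higher in EXP, by 1.16, 3.12 and 2.85 on the log2 scale on days 1, 2 and 4 (adjusted p 0.0377, 0.000881 and 0.000604), with 24.6 to 55.4 CPM in CTRL and 224 to 386 CPM in EXP on day 2. Pcsk6 fell by 1.53 on day 1 and 2.38 on day 2 (adjusted p 0.00232 and 0.00143), and its day 4 value of -0.69 did not pass (adjusted p 0.205). Sparc, whose matrix protein binds PDGF B-chain dimers, fell by 1.62 on day 2 (adjusted p 0.0202), from 34863 to 45116 CPM in CTRL to 6085 to 20151 CPM in EXP. That call was lost without day 2 CTRL replicate 1 (-1.51, adjusted p 0.0620), EXP replicate 1 (-1.27, 0.118) or EXP replicate 3 (-1.60, 0.0675). It was also lost without a filter on low counts (-1.61, 0.0659).

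Receptor-proximal signalling genes, the adaptors, lipid kinases and Src-family kinases that bind activated receptors, had 2 of 24 higher and 3 lower on day 1. Those are 8.33% and 12.5%, against 13.9% and 14.7% of all genes. On day 2 there were 0 higher and 1 lower (0% and 4.17%, against 7.72% and 5.71%). On day 4 there were 0 higher and 4 lower (0% and 16.7%, against 12.8% and 9.66%). The medians of the list were 0.14, -0.42 and -0.49. Fyn, a Src-family kinase gene, fell by 1.66 on day 2 and 1.34 on day 4 (adjusted p 0.00569 and 0.0105), and the day 4 call was lost without EXP replicate 1 (-1.12, adjusted p 0.0700).

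Among 14 genes of receptor down-regulation and feedback, 5 were higher and 2 lower on day 1. Those are 35.7% and 14.3%, against 13.9% and 14.7% of all genes. On day 2 and again on day 4, 1 was higher and 2 lower (7.14% and 14.3%). The shares of all genes were 7.72% and 5.71% on day 2, and 12.8% and 9.66% on day 4. Spry1, a feedback inhibitor of receptor tyrosine kinase signalling, was lower in EXP on all days, by -0.89, -1.11 and -1.19 (adjusted p 0.0160, 0.0288 and 0.0117). The day 4 call was lost without EXP replicate 1 (-0.98, adjusted p 0.0786) or 2 (-1.15, adjusted p 0.0536). Socs3, a suppressor of cytokine signalling, fell by 1.30 on day 1 and 1.00 on day 2 (adjusted p 0.000943 and 0.0409).

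Of 18 genes known as early PDGF targets in cultured fibroblasts, 7 were higher and 1 lower on day 1. Those are 38.9% and 5.56%, against 13.9% and 14.7% of all genes. On day 2, 2 were higher and 2 lower (11.1% each, against 7.72% and 5.71%). On day 4, 1 was higher and 2 lower (5.56% and 11.1%, against 12.8% and 9.66%). The medians of the list were 0.30, -0.16 and -0.36. Cxcl1, a neutrophil chemokine gene, was at 2462 to 5755 CPM in EXP against 687 to 1643 CPM in CTRL on day 1. It was at 2528 to 2718 against 255 to 323 CPM on day 2 and at 2214 to 9370 against 445 to 860.3 CPM on day 4. Its log2 fold changes were 1.95, 3.19 and 3.35 (adjusted p 0.000430, 0.000183 and 8.78e-05).

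Odc1, encoding the first enzyme of polyamine synthesis, and Hmga1, encoding a chromatin protein, rose on day 1 (1.73 and 1.57, adjusted p 0.0209 and 0.00647). The Odc1 call was lost without day 1 CTRL replicate 4 (1.66, adjusted p 0.0529) or EXP replicate 1 (1.12, adjusted p 0.0735), and without a filter on low counts (1.71, adjusted p 0.0625). Klf10, a transcription factor gene, fell by 1.55 on day 4 (adjusted p 0.00481), from 120.4 to 194 CPM in CTRL to 27.6 to 89.7 CPM in EXP. In a fit of the day 4 libraries alone, Klf10 (adjusted p 0.0644), Fyn (0.0508) and Spry1 (0.0759) were not called. Several of these genes also respond to other signals in wounds, and what acted on them here was not tested.

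**Figure D5:**
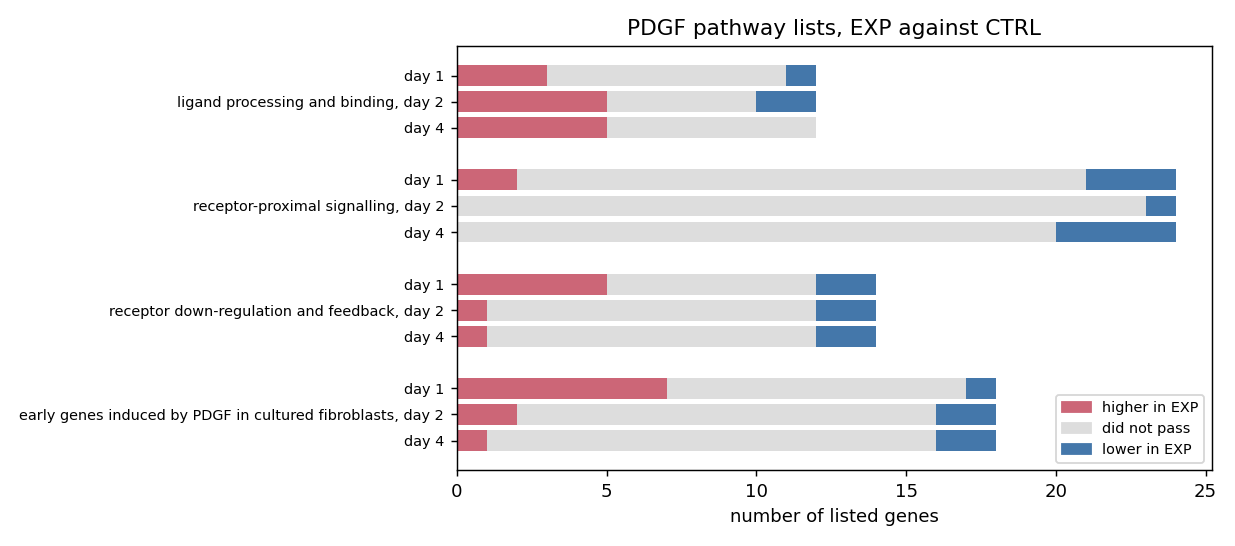
Number of genes of each PDGF pathway list called higher (red), called lower (blue) or not called (grey) in EXP against CTRL on days 1, 2 and 4. Of the 12 ligand processing and binding genes, 5 were higher on day 2 and on day 4, and of the 18 early genes, 7 were higher on day 1 and 1 on day 4.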

How the data were processed

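RNA of sorted fibroblasts was sequenced as ultra-low-input, paired-end Illumina libraries, per the labels' protocols. The authors deposited raw counts per gene in 1 table with Ensembl identifiers. Per the submitters' processing notes, reads were trimmed with Trimmomatic and the build was mm39. The aligner, counter, annotation and strandedness are not given in the sources used here, so reads of antisense neighbours may be mixed. Symbols and exon lengths came from GENCODE M21 (a symbol for 52081 of 55414 identifiers), and upstream windows from RefSeq on GRCm38.p6, a build other than that of the counts.

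Counts were analysed in R 4.3.3 with edgeR 4.0.16: filterByExpr (minimum count 10), TMM and the robust quasi-likelihood F-test, fitted to all 22 libraries with a mean per group (16 residual degrees of freedom). P-values were adjusted by Benjamini-Hochberg over all 17554 genes of a contrast, and genes with an adjusted p under 0.05 were called. Ratios of counts had 0.5 added to each count. Alternatives were DESeq2 1.42.0 (test or size factors), limma 3.58.1 voom with quality weights, library totals, no filter, a replicate block, the library split as covariate or within its sides, single days and each library left out. Ratios within the low side of the split were added after seeing the data. On simulated counts for the day 1 comparison (17554 genes, 200 changed), edgeR recovered 42% of 2-fold and 80% of 4-fold changes, with 4 false calls of 126. These rates depend on the share of changed genes and on group sizes. The real day 1 comparison had 5017 calls, and days 2 and 4 had fewer libraries, so the rates do not carry over to them.

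The members and lists were chosen with earlier results of these data known, and written by hand. Named genes were the members, the genes of the sort, the 3 genes most correlated with each tested member (averaging 1 CPM or more), and for each day the 3 largest called rises and falls among pathway genes averaging 5 CPM or more whose arms do not overlap, of which 1 is not reported here. Log2 CPM used a prior count of 2. Nothing in the labels states that libraries of a group came from separate animals, so p-values measure the spread between these samples. Counting noise did not account for the differences within groups (chi-square over its degrees of freedom of 25.5 to 423 for each pair), so no libraries were merged. Marker lists for 10 cell types were summed. The macrophage list summed to 33.9 to 164 CPM, with Csf1r at 14.4 to 158 CPM and Ptprc and Adgre1 at 0.243 CPM or less. The melanocyte list summed to 1.93 to 37.0 CPM, with Mlana up to 36.5 CPM and each other gene at most 1.84 CPM. The Schwann cell list summed to 4.19 to 15.2 CPM and the skeletal muscle list to 0.182 to 3.19 CPM. The labels name no molecular identifiers, so limits from 3 counts cover counting error only.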

Additional observations from a re-analysis of the deposited data

Results flagged for a closer look

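Single libraries far from the rest of their group appeared in 11 of the 72 sets of 4 or 5 libraries examined, where chance alone gives about 1 in 20. Another 6 sets, at 3 counts or fewer, were not examined, and groups of 3 libraries are too small. Among the members, Pdgfra was lowest in day 1 EXP replicate 2 (465 CPM, against 643 to 702 CPM in the others). Pdgfc was highest in day 4 CTRL replicate 1 (15.6 CPM, against 5.41 to 6.92 CPM). Pdgfb was detected in day 4 CTRL replicate 2 alone (0.172 CPM). Among the genes of the sort, Cd34 was highest in day 1 EXP replicate 2 (778 CPM, against 262 to 366 CPM), and Kit was found among day 4 CTRL libraries in replicate 1 only (0.242 CPM).

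On day 1, Socs3 was highest in CTRL replicate 1 (1597 CPM, against 958 to 996 CPM), Cxcl1 in CTRL replicate 3 (1643 CPM, against 687 to 821 CPM) and Hmga1 in EXP replicate 1 (63.1 CPM, against 33.1 to 39.6 CPM). In day 4 CTRL, Pcsk5 was highest in replicate 1 (61.2 CPM, against 45.5 to 48.1 CPM), Pcsk6 in replicate 2 (29.4 CPM, against 11.5 to 14.4 CPM) and Odc1 in replicate 4 (67.7 CPM, against 9.87 to 19.7 CPM).

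The EXP effect differed between days for Plat (edgeR adjusted p 0.00169 for the joint test), at -0.41, 2.02 and 2.63 on days 1, 2 and 4. It also differed for Plau (adjusted p 0.0262), at 0.36, 1.67 and 3.01. Both genes had been named for a large rise on a single day, which favours such a difference, and 8.82% of all genes passed this test.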

How the results depend on the processing

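The Pdgfra calls of days 1 and 2 and the Pdgfra to Pdgfrb ratio held under most settings, with the day 1 call lost only within the high side of the library split, where fewer libraries were tested. The number of members called on day 1 (1 as reported) was 2 with the DESeq2 test and with limma voom, which added Pdgfrl, 0 within the high side of the split, and 1 to 2 with a library left out. On day 2 (1 as reported) it was 2 with DESeq2 size factors, the DESeq2 test and single-day fits, each adding Pdgfrl, 2 with library totals, which added Pdgfrb, 3 with limma voom, and 1 to 2 with a library left out. On day 4 (1 as reported) it was 0 with limma voom (Pdgfra 0.42, adjusted p 0.308), the split as covariate (0.79, 0.0826), single-day fits (0.77, 0.169) and the low side of the split, and 0 to 1 with a library left out, 0 in 5 of 7 runs. Members whose EXP effect differed between days numbered 1 with limma voom and 0 to 1 with a library left out. Members changed over days within EXP numbered 0 without a filter (Pdgfd adjusted p 0.0627), and 0 to 2 with a library left out. The Pdgfa to Pdgfc difference was -0.69 within the low side, without a call, and -0.93 to -0.54 with a library left out. Except where a setting tests fewer libraries or other genes, the cause was not tested.

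Pathway genes called on day 1 (24) were 14 within the high side of the split. On day 2 (15) they were 26 with limma voom, 25 in single-day fits and 8 to 17 with a library left out, 9 without CTRL replicate 2 and 8 without EXP replicate 1 or 3. On day 4 (15) they were 23 with the DESeq2 test, 6 in single-day fits, 0 within the low side of the split (where 1 of 16462 genes was called) and 7 to 25 with a library left out, 7, 9 and 25 without EXP replicates 1, 2 and 3.

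Library totals without TMM moved the median of all genes to 0.21, 0.49 and 0.36 on days 1, 2 and 4 (0.02, 0.02 and 0.03 with TMM), and the share of calls that were higher to 66.2%, 90.5% and 80.8% (48.7%, 57.5% and 57.0%). Values that changed sign, all far from a call, were on library totals Pdgfrb on days 1 and 4 (0.19 and 0.0843), Pdgfc on day 1 (0.0955), Pdgfd on day 2 (0.14) and Pdgfa on day 4 (0.0845). They were also Pdgfrb on day 1 with limma voom (0.0781), Pdgfc on day 4 with the split as covariate (-0.0767), Pdgfc and Pdgfd on day 1 within the high side (0.0284 and 0.0808) and on day 4 within the low side (-0.24 and -0.18). With a library left out, day 1 values ran from -0.16 to 0.16 for Pdgfrb, -0.26 to 0.0706 for Pdgfc and -0.52 to 0.0539 for Pdgfd. Day 2 values ran from -0.20 to 0.42 for Pdgfc and -0.66 to 0.0507 for Pdgfd, and day 4 values from -0.47 to 0.0105 for Pdgfa, -0.13 to 0.53 for Pdgfc and -0.20 to 0.38 for Pdgfd.

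CTRL and EXP libraries share replicate numbers, but deviations of same-numbered libraries correlated at only -0.07 to 0.16, so the numbers were not taken as pairs. Of 20 libraries, 9 correlated best with their own number. The level of that count by chance was not worked out, so it does not decide for or against pairs. With the replicate block, members called on day 4 were 0 (Pdgfra 0.60, adjusted p 0.182), members changed over days within EXP were 0 (Pdgfd adjusted p 0.0523), Pdgfd on day 4 was -0.0857, and Sparc on day 2 was not called (-1.77, adjusted p 0.0507). Ratios with same-numbered pairing (10 pairs) differed by 1.02 for Pdgfra to Pdgfrb and -0.77 for Pdgfa to Pdgfc.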
